A study of Mus musculus with 6 samples.

Results

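The AP-1 family transcription factors were described in quadriceps of AR97Q mice, gene by gene and probe by probe. The members were Fos, Fosb, Fosl1, Fosl2, Jun, Junb, Jund, Maff and Batf, and they were found by matching the transcript accession of each array probe to these symbols in a mouse gene annotation. All 9 were on the array, with 13 probes, and all 9 were among the 25005 genes and transcripts tested. Of the 13 probes, 12 were detected well above background on 3 arrays or more and were kept. Fosb, Fosl2, Junb and Jund had 2 probes each and the other 5 members had 1.

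AR97Q mice carry a human androgen receptor transgene with an expanded CAG repeat and model spinal and bulbar muscular atrophy (SBMA), a disease of motor neurons and muscle. The promoter that drives the transgene is not given in the sources used here. All 6 mice were male, carried the transgene and were 9 weeks old, and each gave 1 array of quadriceps RNA. The 3 mice of the exercise group had run at low to moderate intensity on a forced wheel during the weeks before, whereas the 3 mice of the sedentary group had not, and per the methods muscle was taken on the day after the final run. Mice without the transgene were not analysed here, so each difference is between exercised and sedentary AR97Q muscle.

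AP-1 is a dimer of basic leucine zipper (bZIP) proteins that binds DNA and switches target genes on or off. Jun proteins pair with each other or with a Fos protein, whereas Fos proteins need a partner, and the small Maf protein Maff and the Batf protein lack the activation domains of Fos and Jun. Fos, Fosb, Jun and Junb are immediate early genes, whose mRNA rises and decays quickly after contraction, stretch or injury of muscle. The rise needs no new protein.

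The Fos gene lay on chromosome 12 at 85473890 to 85477274, Fosb on chromosome 7 at 19302696 to 19310118, Junb on chromosome 8 at 84976909 to 84978748 and Jun on chromosome 4 at 95049036 to 95052222, in the mouse build GRCm38.p6. Signals from kinases reach a gene in part through the sequence before its start, and sequence beyond the windows was not searched. The windows of the 4 members with the largest positive differences are shown, with that of Maff for contrast. They are from RefSeq, on the strand of the gene, 5′ to 3′. For Fos, Junb and Jun the 150 bases that end at the start are given, and for Fosb and Maff, where the annotated gene overlaps the window, 30 bases around the motif. Capitals mark TGACG, the core of the cyclic AMP response element bound by CREB and ATF proteins, TGACGTCA, the full element, which holds the core on both strands, TGACATCA, a variant of the AP-1 site, and TATAAA, the TATA box.
Fos, chr12:85473740-85473889, plus strand: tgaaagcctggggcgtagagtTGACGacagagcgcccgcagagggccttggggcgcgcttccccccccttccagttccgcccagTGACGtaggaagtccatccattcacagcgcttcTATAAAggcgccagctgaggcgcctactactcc
Fosb, chr7:19310088-19310117, minus strand: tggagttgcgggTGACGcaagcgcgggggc
Junb, chr8:84978749-84978898, minus strand: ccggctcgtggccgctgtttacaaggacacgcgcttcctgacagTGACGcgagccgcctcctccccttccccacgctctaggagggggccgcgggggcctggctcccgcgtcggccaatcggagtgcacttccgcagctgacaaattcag
Jun, chr4:95052223-95052372, minus strand: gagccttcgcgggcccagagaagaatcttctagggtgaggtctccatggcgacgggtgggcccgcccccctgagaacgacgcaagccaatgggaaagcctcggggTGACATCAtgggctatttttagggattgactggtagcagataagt
Maff, chr15:79347479-79347508, plus strand: cggctggggcggTGACGTCActgcatgact

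Windows of 250 bases before the start were held for 8 members, 10 windows in all, of which 3 belonged to Maff. Each motif was searched on both strands. TGACG was in 6 of the 10 member windows, beside 17.8% of all 32851 windows of that length. The 6 windows belonged to 5 of these 8 members. Fos had 2 copies, which ended 124 and 61 bases before its start, and it alone of the members had TATAAA, which 12.4% of all windows held. Fosb had 1 copy of TGACG at 55 bases, Junb 1 at 101 bases and Batf 1 at 93 bases. The window of Maff printed above held the full element TGACGTCA, found in 1.55% of all windows, 21 bases before the start. Jun had no TGACG and 1 TGACATCA, a motif in 2.93% of all windows, and another window of Maff held 1 copy each of TGACATCA and TGACG. No member window held TGACTCA, the classical AP-1 site, which 4.46% of all windows held. These matches are a description of letters, and were shared by members whose mRNA differed between the groups and members such as Batf and Maff whose intervals included 0.

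Values are log2 of the background-subtracted signal of a probe minus the 75th percentile of that array, so that 0 is the level of the 75th percentile probe. They compare arrays for 1 probe and do not rank 1 gene against another. Before this scaling the 75th percentile signal ranged from 250.7 to 257.0 in the exercise group and from 310.5 to 383.7 in the sedentary group. The scanner software placed 54.62 to 59.85% of probes well above background, and saturated spots numbered 0. On the slide, which the array barcodes divide into 2 strips, exercise 1 to 3 shared a strip with sedentary 1 and not with sedentary 2 and 3. A value against sedentary 1 alone is therefore given for the members as a comparison within 1 strip. Of the 10 tested marker genes of skeletal muscle fibres 7 were higher with exercise (array means 8.21 to 8.42 against 7.27 to 7.78), and 1 marker each of satellite cells (Pax7), smooth muscle (Myh11) and neutrophils (Retnlg) was lower. All 10 fibre markers were well above background on every array, as the quadriceps label implies. Of the adipocyte markers (log2 fold changes of -0.997 to 0.35) Lep was higher. The ranges were -0.256 to 0.154 for macrophage, -0.226 to 0.229 for fibroblast, -0.396 to 0.166 for endothelial, -0.525 to 0.538 for lymphocyte and 0.0646 to 0.549 for red blood cell markers, with no gene of these past the threshold.

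The mRNA of Fos, Fosb and Junb was higher in exercised than in sedentary AR97Q muscle, by 3.97-fold, 4.16-fold and 2.37-fold. With limma these were 3 of the 9 members past an adjusted p of 0.05, beside 11.5% of all genes tested that passed in that direction. All 3 also had a log2 fold change of at least 1, beside 1.72% of all genes. Jun was higher on each exercise array, but its adjusted p was 0.0591, and no member was lower past the threshold, beside 6.15% of all genes. At an unadjusted p under 0.05, 4 members were higher and 0 lower. The share of all genes at that level was not counted, here or below. In this fit it cannot be under the 11.5% higher and 6.15% lower given above. The median log2 fold change was 0.244 over the members and 0.0254 over all genes tested. Without scaling between arrays these medians were -0.229 and -0.447, and with spike-in scaling -0.298 and -0.516. Under each of these settings the median of the members was above that of all genes. That of the members was 0.545 without exercise 1, 0.414 without exercise 2 and 0.14 without exercise 3.

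**Figure D1:**
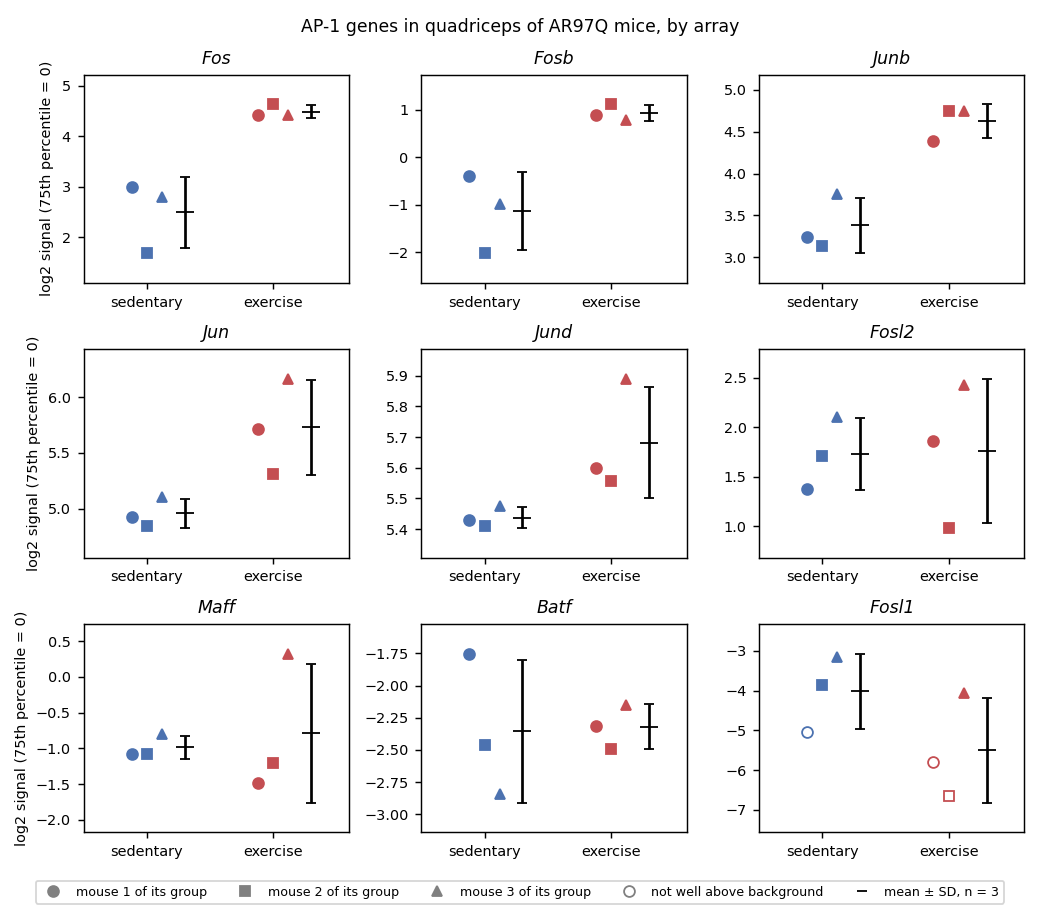
Log2 signal of each AP-1 gene relative to the 75th percentile of its array (y axis, own scale per panel), for the 3 sedentary (blue) and 3 exercise (red) arrays. Bars are mean ± SD, n = 3, and open symbols were not well above background. Fos, Fosb, Junb, Jun and Jund do not overlap between the groups, and the other 4 members do.

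Among the Fos proteins, Fos itself is the founding member and a strong activator. Its log2 signal was 4.41, 4.63 and 4.41 on exercise arrays 1 to 3. On sedentary arrays 1 to 3 it was 2.99, 1.69 and 2.80. The exercise arrays lay within 0.221 of each other, the sedentary arrays spread over 1.31, and the lowest exercise array was 1.42 above the highest sedentary array. The group means were 4.48 ± 0.13 (SD, n = 3) and 2.49 ± 0.71 (SD, n = 3). Exercise minus sedentary was 1.99 on the log2 scale (standard error 0.34, 95% interval 1.16 to 2.82, limma adjusted p = 0.0240), and 1.49 against sedentary 1 alone.

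Fosb, whose short splice form ΔFosB is long-lived, followed the same course over the arrays. The brighter of its probes gave 0.88, 1.12 and 0.78 on the exercise arrays and -0.39, -2.01 and -0.98 on the sedentary arrays. As for Fos, sedentary 2 was the lowest array, sedentary 1 the highest of its group and exercise 2 the highest of all. The groups were 1.17 apart at their nearest arrays. The log2 fold change of Fosb was 2.06 (standard error 0.40, 95% interval 1.09 to 3.02, limma adjusted p = 0.0266), and 1.31 against sedentary 1 alone. Which splice form the probe reads is not given in the files.

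The second Fosb probe was too dim to pass the filter on low signals. Its processed signal was 15.8, 13.5 and 8.7 on the exercise arrays and 2.7, 3.2 and 5.9 on the sedentary arrays, and only the first of these was well above background. The exercise arrays again lay above the sedentary arrays, at a level where the scanner software did not tell 5 of the 6 values from background. When that filter was left out, this probe was 2.20 higher on the log2 scale after exercise (limma, standard error 0.33, adjusted p = 0.00982). This rests on signals of which 1 was well above background. Gene by gene, 9737 genes were called higher without the filter and 2867 with it, and the median of all genes was 0.18 without it.

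Fosl2 and Fosl1, known as Fra-2 and Fra-1, lack the strong activation domain of Fos and in many cells rise later than Fos. The brighter Fosl2 probe gave 1.86, 0.98 and 2.43 with exercise and 1.38, 1.71 and 2.11 without. The arrays of the groups were interleaved, and exercise 2, the highest array for Fos and Fosb, was the lowest for Fosl2. The log2 fold change of Fosl2 was 0.03, with an interval of -0.91 to 0.96 that leaves room for a difference of nearly 1 in either direction. Against sedentary 1 alone the brighter probe gave 0.38. The dimmer Fosl2 probe, not well above background on exercise 2, gave 0.12 (standard error 0.42).

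Fosl1 was near the limit of detection. Its probe was well above background on 1 exercise array and 2 sedentary arrays, with processed signals of 4.6, 2.6 and 15.1 in the exercise group and 9.4, 25.4 and 42.9 in the sedentary group. The groups overlapped, and the range within each group was wide, 2.59 and 1.88 on the log2 scale. Exercise minus sedentary was -1.47 for Fosl1 (95% interval -3.31 to 0.37, limma adjusted p = 0.211) and shrank to -0.46 against sedentary 1.

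Among the Jun proteins, Junb can replace Jun in dimers with Fos and is a weaker activator, and in muscle it is known for sustaining fibre size. Its brighter probe gave 4.39, 4.74 and 4.74 on the exercise arrays. On the sedentary arrays it gave 3.25, 3.14 and 3.76. All exercise arrays were above all sedentary arrays, by at least 0.634, and sedentary 3 was the nearest. This put Junb 1.24 higher with exercise on the log2 scale (standard error 0.19, 95% interval 0.77 to 1.72, limma adjusted p = 0.0234), and 1.38 against sedentary 1 alone.

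The dimmer Junb probe did not separate the groups. It was at -2.13, -1.54 and -1.73 with exercise and at -3.72, -1.26 and -2.38 without, so that sedentary 2 was the highest and sedentary 1 the lowest of the 6 arrays. The group difference was 0.66 on the log2 scale, with a standard error of 0.59 (limma adjusted p = 0.459 over all probes). The call for Junb was therefore that of the brighter probe, and the mean of both probes gave 0.95 with an adjusted p of 0.0875.

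Jun, the partner that most Fos dimers use and a substrate of the JNK kinases, was at 5.72, 5.31 and 6.16 on the exercise arrays and at 4.93, 4.85 and 5.10 on the sedentary arrays. The groups did not overlap, but only 0.208 separated exercise 2 from sedentary 3. Exercise 3 stood highest and the exercise arrays spread over 0.853, against 0.255 in the sedentary group. For Jun exercise minus sedentary was 0.77 (standard error 0.22, 95% interval 0.24 to 1.30, limma adjusted p = 0.0591), and 0.80 against sedentary 1. Jun passed the threshold under 5 of the 22 other settings tried, among them scaling on the array median (adjusted p = 0.0345).

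Jund, which is expressed steadily in most tissues and is not an immediate early gene, was at 5.60, 5.56 and 5.89 with exercise and at 5.43, 5.41 and 5.47 without. Its sedentary arrays lay within 0.0656 of each other, and its groups were 0.0824 apart at their nearest arrays. Jund had a log2 fold change of 0.24 (95% interval -0.03 to 0.52, limma adjusted p = 0.171), and 0.25 against sedentary 1 alone. Its second probe gave 0.18 (standard error 0.12), with exercise arrays at 4.86, 4.86 and 5.21 and sedentary arrays between 4.76 and 4.84. The sign of the Jund difference turned without scaling between arrays, to -0.23, and with scaling on spike-in probes, to -0.30.

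Maff, a small Maf protein induced by stress, and Batf, which pairs with Jun proteins in immune cells, were dimmer than the 75th percentile on most arrays. Maff was at -1.48, -1.20 and 0.32 with exercise and at -1.07, -1.08 and -0.80 without. Exercise 3 alone stood above the sedentary arrays, and the other exercise arrays lay below them. The log2 fold change of Maff was 0.20 with an interval of -0.92 to 1.32, and 0.29 against sedentary 1 alone.

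Batf was at -2.32, -2.50 and -2.15 with exercise and at -1.75, -2.46 and -2.85 without. Here the sedentary arrays spread over 1.09 and enclosed all exercise arrays. Batf had a log2 fold change of 0.03 with an interval of -0.64 to 0.71, and -0.57 against sedentary 1, the brightest Batf array. The cells in which Batf is best known, lymphocytes, had 6 tested markers, and their array means were -1.65 to -1.35 with exercise and -1.50 to -1.43 without.

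**Figure D2:**
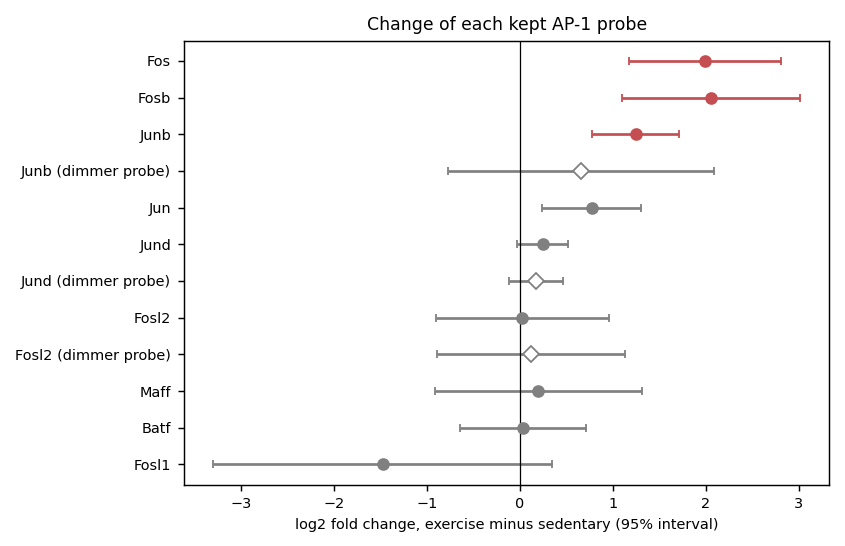
Log2 fold change, exercise minus sedentary, of the 12 tested AP-1 probes (x axis, with 95% intervals from limma), brightest probe per gene as circles and dimmer probes as diamonds. The 3 red probes, of Fos, Fosb and Junb, had an adjusted p under 0.05, and the widest interval is that of Fosl1.

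Counted probe by probe, 3 of the 12 tested AP-1 probes were higher past an adjusted p of 0.05, beside 10.5% of all 32726 probes, and 0 were lower. The groups did not overlap for 5 of the 9 members, beside 43.2% of all genes, and in all 5 (Fos, Fosb, Junb, Jun and Jund) the exercise arrays were the higher ones, beside 25% of all genes. Separation without overlap by itself fixes the two-sided exact permutation p of each of these 5 genes at 0.1, the smallest that 3 arrays against 3 allow. That test therefore adds nothing to the separation. RNA of whole muscle was measured, so a higher signal from each cell and a larger share of the cells that express a gene cannot be told apart. The array means of the fibre markers were higher with exercise, as Fos, Fosb and Junb were, and those of the satellite cell, Schwann cell and smooth muscle markers lower, without overlap between the groups. The array means over the satellite cell markers were 0.751 to 0.88 with exercise and 1.15 to 1.41 without, and those over the 10 macrophage markers 2.56 to 2.83 and 2.57 to 2.85. The part of cell makeup in the AP-1 differences was not tested.

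The members could also be set against each other within an array, where any scaling between arrays cancels. Jund was taken as the reference after its values were seen, because its sedentary arrays were closest together. Fos minus Jund was 1.75 higher on the log2 scale in the exercise group, with exercise arrays between -1.48 and -0.929 and sedentary arrays between -3.72 and -2.44. Fosb minus Jund was 1.81 higher, Junb minus Jund 1.00 and Jun minus Jund 0.527. Each was without overlap between the groups, which by itself fixes the exact permutation p at 0.1. Fosl2, Maff, Batf and Fosl1 minus Jund overlapped between the groups, with differences of -0.217, -0.0462, -0.21 and -1.72. These differences show unequal change between members and not that Jund was constant.

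**Figure D3:**
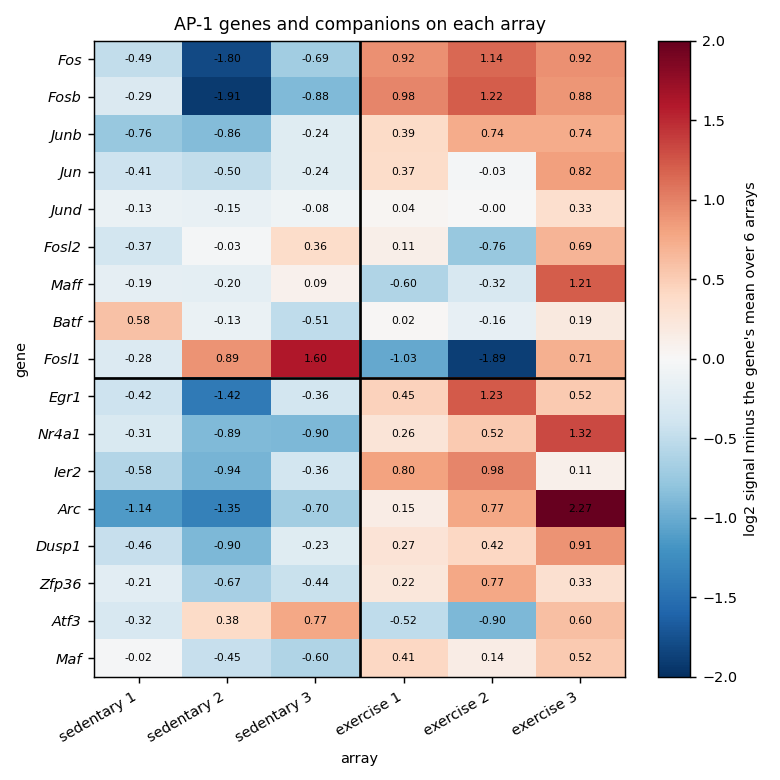
Log2 signal of each AP-1 gene (upper block) and of other named genes (lower block) on each array, minus the mean of that gene over the 6 arrays, with red above and blue below it. Fos and Fosb share the low value on sedentary 2 (log2 signals of 1.69 and -2.01 before centring), and Maff and Arc are highest on exercise 3.

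The members were also compared by their course over the 6 arrays. After each gene was centred on its own mean, Fos and Fosb were the pair of members closest to each other, with a root mean square difference of 0.132. Jun was closest to Jund (0.31) and then to Junb (0.378), whereas Fos and Junb were 0.52 apart. Exercise 3 was the highest exercise array for Jun, Junb, Jund, Fosl1, Fosl2, Maff and Batf, and exercise 2 for Fos and Fosb. Sedentary 3 was the highest sedentary array for Jun, Junb, Jund, Fosl1, Fosl2 and Maff.

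Among all named genes that are not members, those nearest to Fos over the 6 arrays were Mfsd4b5 (0.155), Nek5 (0.279), Dlgap1 (0.285), Muc4 (0.327) and Egr1 (0.328). Those nearest to Junb were Gm33104 (0.176), Clec1b (0.189), Dusp1 (0.198), Clec7a (0.199) and Nrarp (0.216). Egr1 and Dusp1 are immediate early genes themselves. This likeness is a description over 6 arrays that share 2 groups, and nothing follows from it on function or control.

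The genes around AP-1 were described from lists of its bZIP partners, of the kinases and activators that reach AP-1 promoters, of the phosphatases and other proteins that end the response, of its targets and of other immediate early genes. Of 113 such genes tested, 28 were higher and 1 was lower past an adjusted p of 0.05, beside 11.5% higher and 6.15% lower over all genes. The 28 became 5 without scaling between arrays and 3 with scaling on spike-in probes, where 30 and 29 were lower and the median over all genes was itself -0.447 and -0.516.

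Of 24 other immediate early genes 5 were higher (11.5% of all genes were) and 0 lower, with a median of 0.539 that became 0.0667 and -0.0022 under those settings and 0.241 without exercise 3. Egr1, a zinc finger factor, was at 3.22, 3.998 and 3.28 with exercise and at 2.35, 1.35 and 2.40 without, a log2 fold change of 1.47 (limma adjusted p = 0.0390). Its exercise 2 and sedentary 2 arrays were the extremes, as they were for Fos. Arc, Nr4a1 and Ier2 rose by 2.12, 1.40 and 1.25 on the log2 scale (limma adjusted p = 0.0439, 0.0338 and 0.0304), and Gadd45g by 0.97. Atf3, a stress-induced bZIP partner of Jun, overlapped between the groups. It was at 2.63, 2.25 and 3.74 with exercise and at 2.83, 3.52 and 3.92 without, a log2 fold change of -0.55 (limma adjusted p = 0.409) that was 0.05 against sedentary 1.

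Among 11 bZIP partners tested, Maf alone was higher, by 0.72 (limma adjusted p = 0.0442), beside 11.5% of all genes. The list median was 0.0286, which became -0.444 without scaling, -0.513 with spike-in scaling, -0.0444 without exercise 3, 0.104 without exercise 1 and 0.0595 without sedentary 3. Atf2, Jdp2, Mafg, Mafk, Batf2 and Batf3 had log2 fold changes of -0.07, 0.03, -0.01, -0.01, 0.03 and -0.18. The intervals of the small Maf genes Mafg and Mafk included 0, as that of Maff did.

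Of 28 genes of the MAP kinase cascade, which phosphorylates Jun, Fos and the factors on their promoters, 14 were higher and 1, Braf (-0.32, limma adjusted p = 0.0484), was lower, beside 11.5% and 6.15% of all genes. In the fit over all probes the same Braf probe had a limma adjusted p of 0.0517. The other Braf probes gave -0.17 and -0.44 there (limma adjusted p = 0.304 and 0.0476). The largest differences were those of Map2k6 (1.17), Mapk10, which encodes JNK3 (1.05), Mapk13 (0.82) and Mapkapk3 (0.80). A dimmer Mapkapk3 probe gave 0.50 (limma adjusted p = 0.0719 over all probes). The median of the MAP kinase list was 0.394, and turned to -0.079 without scaling and -0.148 with spike-in scaling. Of 16 activators of AP-1 promoters only Srf, the serum response factor that binds the Fos promoter, was higher (0.44, limma adjusted p = 0.0330), beside 11.5% of all genes, and it turned to -0.03 and -0.10 under the same settings.

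Of 19 brakes on the pathway 6 were higher (11.5% of all genes were) and 0 lower, with a median of 0.356 that turned to -0.116 without scaling and -0.185 with spike-in scaling. Dusp1, which dephosphorylates p38 and JNK, was at 4.47, 4.61 and 5.10 with exercise and at 3.73, 3.29 and 3.96 without, a log2 fold change of 1.06 (limma adjusted p = 0.0328). Zfp36, which speeds the decay of short-lived mRNA, Dusp7 and Dusp10 rose by 0.88, 0.84 and 0.66 on the log2 scale. Of 15 tested genes known as AP-1 targets, in a list that holds mostly proteases, cytokines and their receptors, Vegfa was the 1 called higher (0.54, limma adjusted p = 0.0371), beside 11.5% of all genes, and its other 3 probes gave 0.01, 0.59 and 0.04. The list median of the targets was 0.344, and turned to -0.129 without scaling and -0.198 with spike-in scaling, and it was 0.18 without exercise 3.

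**Figure D4:**
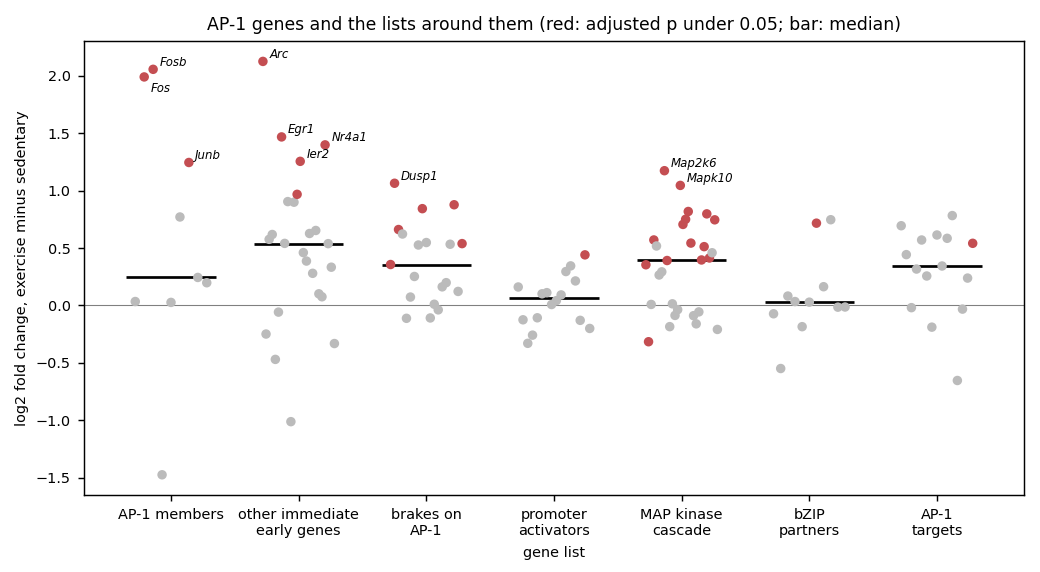
Log2 fold change, exercise minus sedentary, of each tested gene (points) in the AP-1 family and 6 lists around it (x axis), with the list median as a bar. Red points had an adjusted p under 0.05. Fos, Fosb and Junb lie above the members' median of 0.244, and Arc is the highest of the other immediate early genes.

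The size of the Fos, Fosb and Junb differences was positive under every setting tried, from 1.45 to 2.46 for Fos, 1.31 to 2.59 for Fosb and 0.656 to 1.43 for Junb. Their calls rested on the arrays in the fit. Without sedentary 1 all 3 passed the threshold, and without any other single array 0 of the 9 members did. In the latter fits the limma adjusted p was up to 0.0957 for each of the 3. They had 4 or 5 members at an unadjusted p under 0.05, counted in either direction. The 5 without exercise 3 included Fosl1, which was lower (-2.2). Over all genes 0 were higher past the threshold in those fits. Strip as a block compares the exercise arrays with sedentary 1. The limma adjusted p was then 0.186 for Fos, 0.2 for Fosb and 0.154 for Junb, and 0 of all genes were higher. In either direction 4 of the members had an unadjusted p under 0.05 there, and Batf, which was lower (-0.567), was among them.

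**Figure D5:**
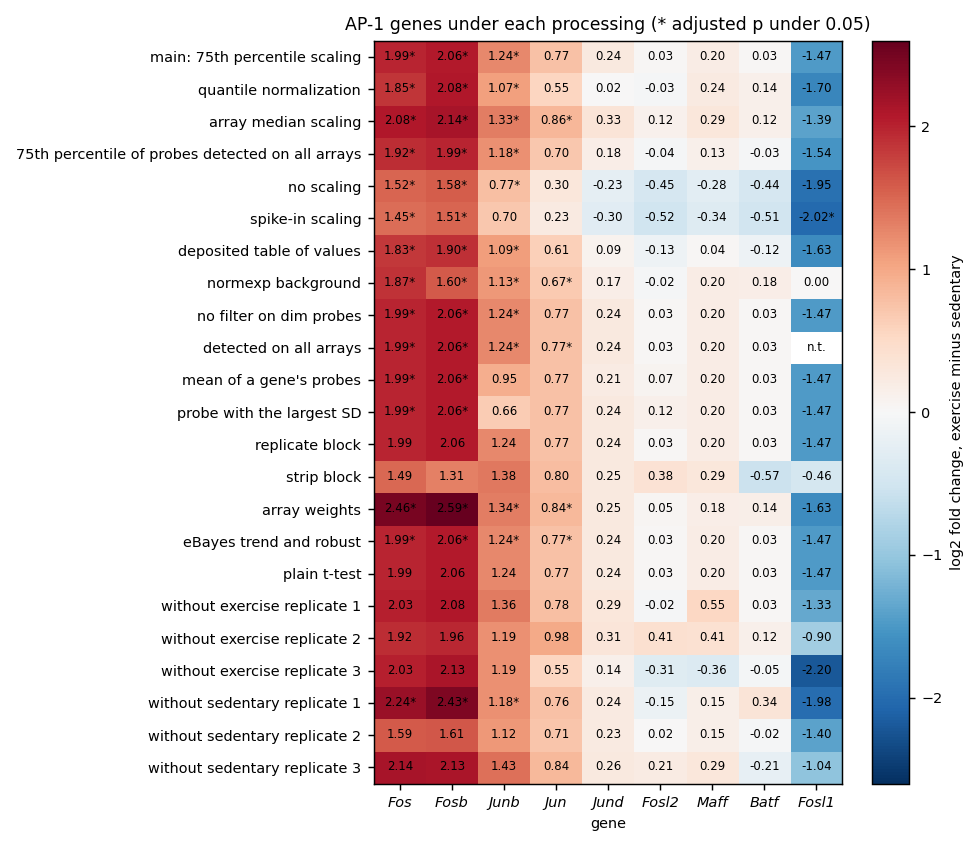
Log2 fold change of each AP-1 gene (columns) under the reported processing (top row) and 22 other settings (rows), red above 0 and blue below, with an asterisk for an adjusted p under 0.05 and n.t. for not tested. The Fos, Fosb, Junb and Jun columns are red throughout, whereas Jund, Fosl2, Maff and Batf change colour.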

How the data were processed

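Quadriceps RNA of 6 male AR97Q mice was hybridized to 1-colour Agilent SurePrint G3 mouse arrays, 1 array a mouse. The authors deposited scanner output of Feature Extraction 12.1.0.3, in which the processed signal is an intensity on a linear scale after background subtraction. They also deposited a table of values that equals this intensity times 1 factor per array (1.333 to 1.884). Neither the labels nor the methods name a scaling between arrays.

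Control spots (3671 of 62976) and outlier spots were left out, spots of a probe were averaged, and log2 of the intensity minus the 75th percentile of its array was taken. Of 56605 probes, 34566 were matched to a symbol by RefSeq accession. A probe had to be detected well above background on 3 or more arrays, and for each gene the probe with the highest mean was used. The exercise and sedentary arrays entered 1 linear model a gene without covariates (lmFit, then eBayes, of limma 3.58.1 under R 4.3.3), with two-sided p-values adjusted by Benjamini-Hochberg over all genes tested, and the procedure was tested on simulated data. The number of arrays limits the precision.

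The methods give iDEP at an FDR under 0.05 and a log2 fold change of at least 1. The alternatives were other scalings, backgrounds, filters, probe choices, blocks, weights and tests, and leaving out each array. Members and lists were chosen with earlier results of these data known. Named were all members, from each list at most the 4 largest rises and falls past the threshold, 9 bZIP partners (some genes of the lists are not reported here), the 5 genes nearest to Fos and to Junb, and further genes of counts of 5 or fewer, chosen after their values were seen. Markers of cell types stood in lists for fibres, macrophages, neutrophils, lymphocytes, fibroblasts, endothelium, smooth muscle, satellite cells, Schwann cells, adipocytes and red blood cells.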

Additional observations from a re-analysis of the deposited data

Results flagged for a closer look

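The dimmer Fosb probe, which did not pass the filter on low signals because it was well above background on 1 array only, gave a processed signal of 15.8 on exercise array 1, above the 2.7, 3.2 and 5.9 of the sedentary arrays. The other exercise arrays gave 13.5 and 8.7 without passing the background test of the scanner software. Tested without that filter, the probe had a log2 fold change of 2.20 (limma adjusted p = 0.00982). Gene by gene, 9737 genes were called higher without the filter and 2867 with it.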

How the results depend on the processing

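Of the 9 members 3 were called higher (Fos, Fosb and Junb). This became 0 with the replicate number as a block, the slide strip as a block and a plain t-test, which the methods name for animal experiments and not for the arrays, and 0 to 3 when arrays were left out one at a time. The tested probes gave the same 0 in those 3 settings and 0 to 3 over the left-out arrays. Without the filter on dim probes 4 probes were called higher, in a setting that called 9737 genes higher. At an unadjusted p under 0.05 these 3 settings had 5, 4 and 4 members in either direction, with no share of all genes counted beside them. Lower members were among them, Fosl1 (-1.47) with the replicate block and Batf (-0.567) with the slide strip. The t-test values of Fos, Fosb and Junb were 0.0661, 0.0782 and 0.0574 after adjustment. Spike-in scaling called 1 member and 1 probe lower (Fosl1, -2.02). Same-numbered arrays did not deviate together (correlations 0.0154, 0.0846 and 0.0361), so the replicate block, under which Fos had an adjusted p of 0.0617, rests on a number only. The Junb call was also lost with spike-in scaling (0.70), with the mean of its probes (0.95) and with its most variable probe (0.656). Jun passed with array median scaling, normexp, probes detected on all arrays, array weights, and eBayes with trend and robust.

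Of the genes in the 6 lists, 28 were called higher and 1 lower. Higher became 11 with quantile normalization, 5 without scaling, 3 with spike-in scaling, 10 in the deposited table, 0 with either block, 2 with the t-test and 0 to 28 over left-out arrays. Lower became 0 with array median scaling, the most variable probe, either block and the t-test, 2 with the percentile of probes detected on all arrays, without a filter, with detection on all arrays and with trend and robust, 3 with weights and the deposited table, 4 with normexp, 30 without scaling, 29 with spike-in scaling and 0 to 1 over left-out arrays.

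Over all genes, 2867 higher and 1539 lower became 617 and 11280 without scaling, 333 and 10490 with spike-in scaling, 1172 and 3201 in the deposited table, 0 and 0 with the replicate block, 0 and 3 with the slide strip, 438 and 206 with the t-test and 5117 and 3639 with weights. Quantile normalization left 1865 higher, normexp 6134 and no filter 9737, and array median scaling left 875 lower. Without sedentary 1 there were 3468 and 2063, and without each other array 0 higher and at most 1 lower. The median of all genes was -0.447 without scaling, -0.516 with spike-in scaling, -0.132 in the deposited table and 0.114 with the array median.

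Signs turned for genes that had not been called. Fosl2 was -0.0308 with quantile normalization, -0.0396 with the percentile of detected probes, -0.446 without scaling, -0.515 with spike-in scaling, -0.131 in the deposited table, -0.024 with normexp and -0.31 to 0.414 over left-out arrays. Batf was -0.032, -0.438, -0.507 and -0.123 under the percentile of detected probes, no scaling, spike-in scaling and the deposited table, -0.567 with the slide strip and -0.211 to 0.335 over left-out arrays. Jund was -0.229 without scaling and -0.298 with spike-in scaling, Maff -0.275 and -0.344, and -0.357 to 0.545 over left-out arrays, and Fosl1 0.00109 with normexp. Jdp2 was -0.00731 with quantile normalization, -0.0376, -0.444, -0.513 and -0.129 in the order given for Batf, -0.235 with the slide strip and -0.218 to 0.161 over left-out arrays. Batf2 was -0.0322, -0.439, -0.507 and -0.123 in that order and -0.0986 to 0.159. Atf2 was 0.0159 with the array median, 0.00921 with the mean of probes and 0.126 with the most variable probe. Mafg was 0.0734 with the array median, 0.00423 with weights and -0.0998 to 0.0364, Mafk 0.0748 with the array median, 0.0587 with the slide strip and -0.173 to 0.104, Atf3 0.047 with the slide strip and Batf3 -0.343 to 0.0107. Of the called genes, Srf turned to -0.0321 without scaling and -0.101 with spike-in scaling, and Vegfa to -0.000382 with spike-in scaling. The cause was not tested.

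Low signal limits Fosl1, the dimmer Fosb probe and the dimmer Fosl2 probe, and with 3 arrays in a group a single gene cannot reach a permutation p under 0.1.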
